A study of Mus musculus with 12 samples.

Results

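The NDC80 complex is the part of the kinetochore that grips spindle microtubules, and its 4 subunits are encoded by Spc25, Spc24, Ndc80 and Nuf2. All 4 genes had a row in the retinal expression table, which held 24340 gene rows, and all 4 were above 0 in at least 1 retina, as were 18509 rows in all. The complex was selected on Spc25, which was abundant in the retina and lower after elevation of the intraocular pressure (IOP), so the Spc25 values under IOP are given as a description with no test. The other 3 genes were taken because their proteins are the partners of Spc25 in the complex.

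RNA was sequenced from both retinas of 6 mice, all of them p16-3MR transgenic and 12 to 16 weeks old, which gave 12 libraries. In 1 eye of each mouse the IOP was held at 85 to 90 mm Hg for 60 minutes by saline infusion, and the contralateral eye of the same animal served as the control. Mice 1, 2 and 5 received ganciclovir (GCV, 25 mg/kg, once daily) and mice 3, 4 and 6 a sham injection of PBS, and the retinas were taken after 3 days of treatment. This gave 4 groups of 3 libraries: control and IOP retinas without GCV, and control and IOP retinas with GCV. The 3MR transgene places a viral thymidine kinase under the regulatory region of the senescence gene p16Ink4a, so that GCV becomes toxic in cells in which that region is active. The control retinas are thus not from untouched animals, and no group lacked the transgene.

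In a dividing cell the kinetochore is a protein assembly on the centromere, built on the histone variant CENP-A and an inner layer of CENP proteins. The NDC80 complex is a long rod: Ndc80 and Nuf2 form the end that binds the microtubule, and Spc24 and Spc25 form the end that docks on the inner layer and on the Mis12 complex. Together with Mis12 and Knl1 it makes up the KMN network. The 4 subunits work as a unit in mitosis, whereas the neurons and photoreceptors of the adult retina do not divide.

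Values were taken to be FPKM, fragments scaled to transcript length and library size, which is an inference from the values. On that reading they can be compared between genes on a per length scale. The summed FPKM of 13 rod photoreceptor genes lay between 41640 and 76040 in the 12 libraries, as a retina label requires. Low FPKM values fell on steps of whole fragments, from which the depth was estimated at 4000000 to 9090000 fragments per library; the IOP retina of mouse 6 was the shallowest, and the next was at 6830000. That library had 14844 genes above 0, against 16044 to 16593 in the others. The sum of 6 lens genes was 3.76 to 66.4 FPKM in 5 control retinas, 4302 FPKM in the control retina of mouse 1, and 44.9 to 3164 FPKM in the IOP retinas. In bulk RNA, fewer cells of a type and less RNA per cell cannot be told apart.

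The promoters are shown because Spc25 and its partners had very different levels in the same retinas. Spc25 is on chromosome 2 (chr2:69193895-69206213), Spc24 on chromosome 9 (chr9:21755434-21760446), Ndc80 on chromosome 17 (chr17:71496100-71526857) and Nuf2 on chromosome 1 (chr1:169497934-169531464), all on the minus strand in GRCm38.p6. RefSeq promoter sequences of that build matched 3 of the 4 genes: Spc25, Ndc80 and Nuf2. The 250 bases before the transcription start of Spc25 (chr2:69206214-69206463) and of Ndc80 (chr17:71526858-71527107) read, 5′ to 3′ on the gene's strand, with motif matches in capitals:
Spc25: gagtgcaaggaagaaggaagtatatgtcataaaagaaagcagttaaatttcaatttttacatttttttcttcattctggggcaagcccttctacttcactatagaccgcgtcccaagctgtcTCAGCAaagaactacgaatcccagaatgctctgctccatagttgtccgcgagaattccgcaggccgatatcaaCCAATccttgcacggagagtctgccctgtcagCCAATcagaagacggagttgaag
Ndc80: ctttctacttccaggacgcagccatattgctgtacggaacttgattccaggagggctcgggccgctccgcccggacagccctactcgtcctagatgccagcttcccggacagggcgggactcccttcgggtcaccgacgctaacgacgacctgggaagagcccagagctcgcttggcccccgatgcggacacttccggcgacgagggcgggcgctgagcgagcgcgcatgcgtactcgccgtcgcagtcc

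5 motifs were searched on both strands. For cell cycle genes these were the cell cycle homology region, spelled TTTGAA or TTCGAA, the CCAAT box and the E2F site, taken as TTCCCGC. For retinal genes they were the CRX and OTX2 site of photoreceptors, searched as TAATCC, and a core of the MAF site, which was TGCTGA here. No motif lies wholly within another. Upstream of Spc25 there were 2 CCAAT boxes, whose first bases lie 55 and 23 bases before the start, and 1 MAF core in reverse (TCAGCA) at 128 bases before the start. Among 32817 RefSeq promoters, 33.8% held CCAAT in the same window and 16.1% the MAF core. The upstream windows of Ndc80 and Nuf2 held none of the 5 motifs. In the first 50 transcribed bases, which 2.47% of promoters share with a cell cycle homology match, Spc25 had TTTGAA at base 25 and Ndc80 had TTCAAA, its reverse, at base 30, and Nuf2 had none:
Spc25, chr2:69206172-69206201: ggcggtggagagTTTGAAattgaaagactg
Ndc80, chr17:71526811-71526840: gaaactttaaaaTTCAAAccgccttgggtt
These are matches of letters in a window and were not tested as binding sites.

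Spc25 was an abundant transcript of the control retina. It stood at 55.2, 63.3 and 66.3 FPKM in the control retinas of mice 3, 4 and 6, and at 70.1, 74.1 and 84.3 FPKM in those of the GCV-treated mice 1, 2 and 5. By mean FPKM it ranked 1204 of 18509 genes in control retinas without GCV and 937 in control retinas with GCV. An estimated 505 to 681 fragments per control library lay behind these values.

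After IOP elevation Spc25 was lower in every mouse, and the control and IOP retinas did not overlap. Over all 18509 genes, 10.1% were lower in all 6 IOP eyes. The share of all genes without such overlap was not counted. The IOP retinas of mice 3, 4 and 6 had 14.4, 26.0 and 19.5 FPKM. Those of the GCV-treated mice 1, 2 and 5 had 22.8, 22.3 and 6.28 FPKM. The retina of mouse 5 was the lowest of all 12, although its own control eye was the highest. Spc25 still ranked 4042 of 18509 genes in IOP retinas without GCV and 4637 in those with GCV, on 65.0 to 269 estimated fragments per library.

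On the log2(FPKM + 1) scale, the IOP eye minus the control eye was -1.58, -1.69, -1.87, -1.25, -3.55 and -1.71 in mice 1 to 6, with a mean of -1.94 ± 0.81 (SD, n = 6). The group difference was -1.61 (SE 0.39) without GCV, -2.27 (SE 0.39) with GCV and -1.94 (SE 0.28) averaged over both. Without the IOP retina of mouse 5 the difference with GCV was -1.71. As the IOP contrasts were used in the selection, these differences carry no p-value. Of the 18509 genes tested, 1.65% passed without GCV, 1.8% with GCV and 12.2% averaged, from which nothing is read about Spc25.

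The groups ordered from control with GCV (76.2 ± 7.3 FPKM, SD, n = 3) through control without GCV (61.6 ± 5.7) and IOP without GCV (20.0 ± 5.8) to IOP with GCV (17.1 ± 9.4). The contrasts between GCV and sham were not used in the selection. Both sets of control retinas were apart in range, a separation that was not counted over all genes. The GCV difference of 0.30 on the log2 scale (SE 0.39, 95% interval -0.57 to 1.17) did not pass limma's test (adjusted p = 1.0). In this contrast 0.0% of the 18509 genes passed, with 295 at an unadjusted p under 0.05. In IOP retinas the ranges with and without GCV overlapped, at -0.36 (95% interval -1.23 to 0.51, adjusted p = 0.838 by limma). Here too 0.0% of genes passed, and 774 were under 0.05 unadjusted. Without the IOP retina of mouse 5 this difference was 0.20, the opposite sign.

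The IOP difference in Spc25 was not shown to depend on GCV. The interaction was -0.66 (SE 0.55, 95% interval -1.89 to 0.57, adjusted p = 0.997 by limma), with 0.0% of genes passing and 358 under 0.05 unadjusted. The interval is wide, and its size rested on 1 retina, since without the IOP retina of mouse 5 the interaction was -0.10.

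**Figure D1:**
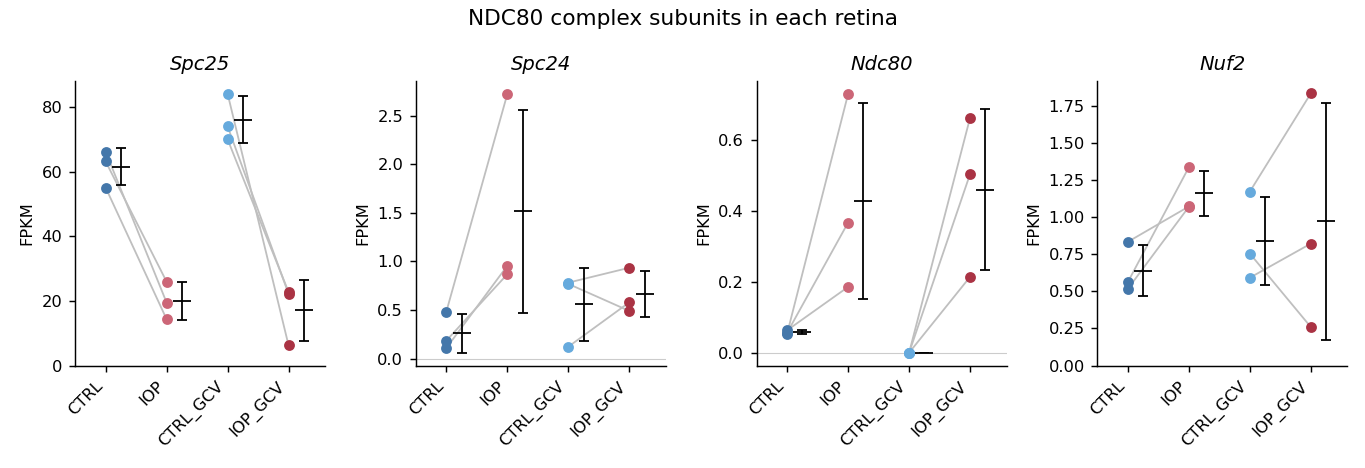
FPKM of the 4 subunits (y axis, linear, a scale of its own for each gene) in the 4 groups (x axis). Points are retinas, grey lines join both eyes of a mouse, and black bars are the mean ± SD (n = 3). Spc25 reads between 55.2 and 84.3 FPKM in control retinas and between 6.28 and 26.0 FPKM in IOP retinas, while no other subunit reaches 3 FPKM.

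The partners of Spc25 were near the limit of detection. Spc24, which pairs directly with Spc25 at the inner end of the rod, stood at 0.109, 0.186 and 0.484 FPKM in control retinas without GCV and at 0.957, 0.869 and 2.72 FPKM in the IOP retinas of the same mice 3, 4 and 6. These groups did not overlap, a separation that was not counted over all genes. With GCV the values for mice 1, 2 and 5 were 0.782, 0.769 and 0.123 FPKM in control eyes and 0.935, 0.491 and 0.580 FPKM in IOP eyes, which overlapped.

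The Spc24 values came from few fragments, 1 to 13 per library. Summed over 3 libraries they were 8 in control and 31 in IOP retinas without GCV, and 15 and 19 with GCV. The IOP difference was 0.93 on the log2(FPKM + 1) scale (SE 0.27, adjusted p = 0.138) without GCV, 0.12 (SE 0.27, adjusted p = 0.882) with GCV and 0.53 (SE 0.19, adjusted p = 0.096) averaged, by limma. Spc24 thus did not pass the threshold in any of the 3 IOP contrasts, although it was higher in 5 of 6 IOP eyes (exact sign-flip test, two-sided, p = 0.09375). It passed without GCV (1.11, adjusted p = 0.0367) and averaged (0.62, adjusted p = 0.0476) when the IOP retina of mouse 4 was left out. With a pseudocount of 0.1 FPKM the averaged difference was 1.28.

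Ndc80, which carries the main microtubule-binding domain of the complex, was the rarest subunit. In control retinas of mice 3, 4 and 6 it was at 0.0632, 0.0539 and 0.0563 FPKM, 1 fragment in each library, and in those of the GCV-treated mice 1, 2 and 5 it was listed at 0. In IOP retinas it stood at 0.186, 0.730 and 0.367 FPKM without GCV and at 0.663, 0.214 and 0.504 FPKM with GCV. All 6 IOP retinas were above all 6 control retinas, a separation that was not counted over all genes.

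Summed over 3 libraries, Ndc80 had 3 fragments in control and 19 in IOP retinas without GCV, and 0 and 23 with GCV, all 12 values lying within 0.0556 of a whole number of fragments. The averaged IOP difference was 0.47 on the log2(FPKM + 1) scale (SE 0.10, adjusted p = 0.015 by limma), and 2.0 with a pseudocount of 0.1 FPKM, so that Ndc80 rose. It was the only one of the 3 partners to pass, in a contrast in which 12.2% of the 18509 genes passed. It did not pass without GCV (0.41, adjusted p = 0.178) or with GCV (0.53, adjusted p = 0.0808), where 1.65% and 1.8% of genes did. With GCV it passed in 4 of 17 alternatives, 3 of them with 1 library left out. The difference had the same sign in 6 of 6 mice (exact sign-flip test, two-sided, p = 0.03125, the smallest p that 6 pairs can give, and 0.09375 after adjustment over 6 such tests). Over all genes, 10.7% were higher in all 6 IOP eyes and 10.1% lower in all 6. The averaged call held in 16 of 16 alternative settings, with adjusted p from 0.00207 to 0.042.

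Nuf2, the partner of Ndc80 at the microtubule end, did not pass in any IOP contrast. It stood at 0.517, 0.833 and 0.563 FPKM in control and 1.07, 1.07 and 1.34 FPKM in IOP retinas of mice 3, 4 and 6. In the GCV-treated mice 1, 2 and 5 it was at 0.592, 0.754 and 1.17 FPKM in control and 0.821, 0.259 and 1.83 FPKM in IOP eyes. The IOP retinas were all above the control retinas without GCV, whereas with GCV they held both the highest and the lowest value of all 12. The share of all genes separated as without GCV was not counted.

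The IOP difference of Nuf2 was 0.40 without GCV (SE 0.25, adjusted p = 0.39), 0.03 with GCV (SE 0.25, adjusted p = 0.993) and 0.22 averaged (SE 0.18, adjusted p = 0.449), by limma. It was higher in 5 of 6 IOP eyes (exact sign-flip test, two-sided, p = 0.2188). For Spc24, Ndc80 and Nuf2 the GCV contrasts and the interaction did not pass either (lowest adjusted p = 0.819). The widest of these intervals, that of the Spc24 interaction, ran from -1.67 to 0.05 on the log2 scale.

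**Figure D2:**
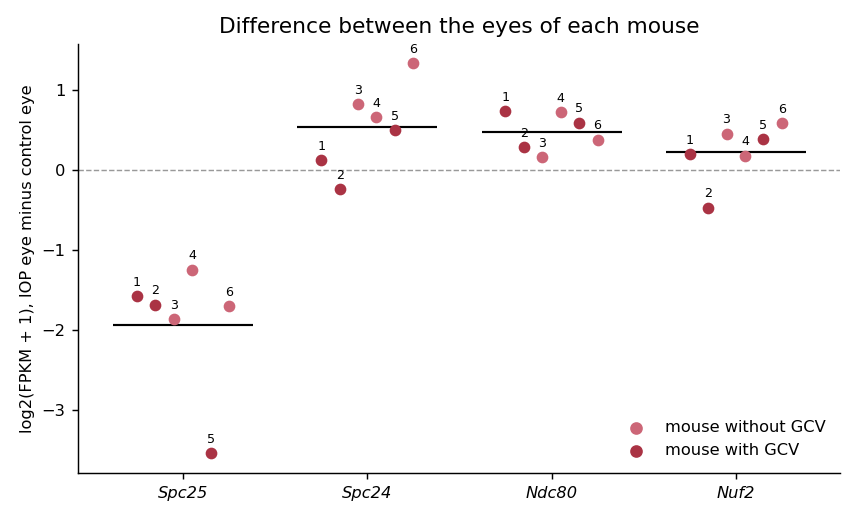
Difference in log2(FPKM + 1) between the IOP eye and the control eye (y axis) for each subunit (x axis). Points are mice, numbered 1 to 6 and coloured by GCV, and the black line is their mean. Spc25 is below 0 in 6 of 6 mice and Ndc80 above 0 in 6 of 6, while Spc24 and Nuf2 are above 0 in 5 of 6, with mouse 2 below.

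The subunits were thus far from equal in the control retina. Spc25 made up 98.0% to 98.8% of the summed FPKM of the 4 genes in the 6 control retinas, and its level was 48.7 to 80.0 times the sum of the other 3. In IOP retinas the share was 81.5% to 90.7% without GCV and 68.3% to 95.8% with GCV. The lowest share was in mouse 5. The sum of the other 3 was 0.689 to 1.52 FPKM in control and 0.964 to 4.43 FPKM in IOP retinas. Even after IOP elevation, then, Spc25 was 2.15 to 23.1 times the level of its partners together.

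Genes next to Spc25 were at low levels. Nostrin, 4564 bases away, lay between 0.0669 and 1.18 FPKM in the 12 libraries. G6pc2, 4859 bases away on the other side, was listed at 0 in 11 of 12 libraries. Abcb11, a bile salt transporter gene 32068 bases away, stood at 0.272, 0.464 and 0.291 FPKM in control and 0.0800, 0.0966 and 0 FPKM in IOP retinas of mice 3, 4 and 6. With GCV it was at 0.224, 0.165 and 0.185 FPKM in control and 0.0518, 0.123 and 0.0962 FPKM in IOP retinas of mice 1, 2 and 5. These values are near the limit of detection. Abcb11 was lower in 6 of 6 IOP eyes, as were 10.1% of all genes. It fell by 0.23 on the log2 scale in the averaged contrast (SE 0.05, adjusted p = 0.0136 by limma, and 0.0418 with the mouse as a block). In these fits 12.2% and 7.3% of all genes were called. Abcb11 was called without GCV (adjusted p = 0.0336 by limma), though not with the block (0.102), and was not called with GCV (0.32). Nostrin was higher in 5 of 6 and did not pass (adjusted p = 0.147). Gm52516, a long noncoding RNA gene 13059 bases away, had no row in the table. In the RefSeq annotation no other gene overlaps Spc25.

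The other components of the KMN network did not follow Spc25 as a group. Of 6 genes, 4 were higher and 2 lower in the averaged IOP contrast, with a median difference of 0.06 on the log2 scale against 0.01 over all genes. Only 1 of the 6 passed, a share near the 12.2% of all genes. That gene was Casc5, the mouse symbol for Knl1, which recruits checkpoint proteins. It was at 0.122 ± 0.035 and 0.244 ± 0.068 FPKM in control and IOP retinas without GCV (adjusted p = 0.216 by limma) and at 0.0443 ± 0.041 and 0.174 ± 0.028 FPKM with GCV (adjusted p = 0.148). These are mean ± SD, n = 3. Its averaged difference was 0.16 (SE 0.04, adjusted p = 0.0321 by limma), and it was higher in 6 of 6 mice, as were 10.7% of all genes. The call was lost with the mouse as a block (adjusted p = 0.0641) and with 8 of the 12 libraries left out 1 at a time.

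Zwint, a binding partner of Knl1 that is also known from neurons, was the only one of these 6 genes above Spc25 in all 12 retinas. Mis12 exceeded Spc25 in the IOP retinas of mice 5 and 6, and Pmf1 in that of mouse 5. Zwint stood at 277, 306 and 294 FPKM in control retinas of mice 3, 4 and 6 and at 118, 333 and 225 FPKM in their IOP retinas. With GCV it was at 338, 450 and 350 FPKM in control and 258, 222 and 190 FPKM in IOP retinas of mice 1, 2 and 5. The averaged difference of -0.63 (SE 0.22, adjusted p = 0.0815 by limma) did not pass, and Zwint was lower in 5 of 6 mice, the exception being mouse 4.

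Of the Mis12 complex, which joins the NDC80 complex to the centromere, Mis12 averaged 12.9 FPKM over the 12 libraries, Pmf1 12.1, Nsl1 0.878 and Dsn1 0.717. Their averaged IOP differences were 0.13, 0.11, 0.01 and -0.09 on the log2 scale, and none passed (adjusted p = 0.571 or more by limma). Of the 4, 0 had an unadjusted p under 0.05, against 5611 of all 18509 genes.

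Of the inner kinetochore, 18 of 20 genes were higher in IOP retinas in the averaged contrast, with a median of 0.16 on the log2 scale, where 51.9% of all 18509 genes were higher. Only 1 of the 20 passed, against 12.2% of all genes: Cenph, part of the layer on which the NDC80 complex docks, which was at 0.282 ± 0.204 and 1.05 ± 0.57 FPKM in control and IOP retinas without GCV and at 0.248 ± 0.205 and 0.668 ± 0.025 FPKM with GCV. It rose by 0.54 (SE 0.14, adjusted p = 0.0367 by limma) and was higher in 6 of 6 mice, as were 10.7% of all genes. Its call held in only 3 of 12 fits that left out 1 library. Without GCV and with GCV alone 0 of the 20 were called, against 1.65% and 1.8% of all genes. Left out 1 at a time in the averaged contrast, the libraries gave 0 to 6 calls on this list, in fits that called 4.51% to 24.5% of all genes. The count was 6 (5 higher, 1 lower) when the IOP retina of mouse 4 was left out, the fit that called 24.5%. The abundant members of the layer, such as Stra13 (65.5 ± 10.0 to 124 ± 68 FPKM across group means) and Cenpc1 (9.73 ± 0.76 to 10.4 ± 1.1 FPKM), did not pass.

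Of 21 outer kinetochore and checkpoint genes, 18 were higher after IOP elevation in the averaged contrast (median 0.15; 51.9% of all genes were higher) and 6 rose, where 12.2% of all genes were called: Birc5, Aurkb and Cdca8 of the chromosomal passenger complex, the checkpoint kinase Bub1 and its relative Bub1b, and Spdl1, which brings dynein to kinetochores. With the mouse as a block Birc5, Bub1b and Cdca8 were called, and Aurkb (adjusted p = 0.0511 by limma), Bub1 (0.0541) and Spdl1 (0.0618) were not. Over all genes 7.3% were called with the block. Without GCV and with GCV alone 0 of the 21 were called, where 1.65% and 1.8% of all genes were. Birc5 (survivin) was at 0.305 ± 0.129 and 2.55 ± 0.89 FPKM in control and IOP retinas without GCV and at 0.329 ± 0.423 and 2.20 ± 1.5 FPKM with GCV. Its averaged difference was 1.31 (SE 0.23, adjusted p = 0.00841 by limma). Without single libraries 1 to 8 of the 21 were called in the averaged contrast, in fits that called 4.51% to 24.5% of all genes. The count was 1 when the control retina of mouse 2 or 4 was dropped, 2 or 3 when that of mouse 1, 3 or 6 was, and 8 when the IOP retina of mouse 4 was. Whether this list differed from the inner kinetochore was not tested.

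Genes that mark dividing cells moved the other way from Spc25. Of 23 such genes, 22 were higher in IOP retinas in the averaged contrast (median 0.38) and 13 rose, against 51.9% higher and 12.2% called over all genes. Among the 13 were the proliferation marker Mki67, the topoisomerase Top2a, the mitotic kinase Cdk1 and the mitotic cyclin Ccnb2. Mki67 was at 0.0259, 0 and 0.0925 FPKM in control and 1.04, 1.29 and 1.14 FPKM in IOP retinas of mice 3, 4 and 6. With GCV it was at 0.0536, 0.0131 and 0.132 FPKM in control and 0.531, 0.528 and 1.43 FPKM in IOP retinas. All IOP retinas were above all control retinas, a separation that was not counted over all genes. The averaged difference was 0.90 (SE 0.11, adjusted p = 0.00127 by limma).

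Top2a rose by 0.97 (SE 0.09, adjusted p = 0.000422), Ccnb2 by 1.21 (SE 0.18, adjusted p = 0.00312) and Cdk1 by 0.68 (SE 0.10, adjusted p = 0.00337), each in 6 of 6 mice. Of the 23 genes, 15 were higher in all 6 IOP eyes, against 10.7% of all genes. Without GCV 9 of the 23 were called and with GCV 4 (Mki67, Rrm2, Top2a and Ube2c), where 1.65% and 1.8% of all genes were. With the mouse as a block these counts were 3 and 0, where 0.405% and 0.778% of all genes were called. Without single libraries they were 1 to 12 and 0 to 6, where 0.125% to 13.5% and 0.417% to 5.67% of all genes were, lowest without the control retina of mouse 3 or 4 and of mouse 1, 2 or 5. The averaged count of 13 was also 13 with the block, where 7.3% of all genes were called, and 9 to 14 without single libraries, where 4.51% to 24.5% were. No gene of this list was called in the interaction, where 3 of the 23 had an unadjusted p under 0.05, all lower, against 358 of all 18509 genes. For GCV in IOP retinas 0 were called and 20 of the 23 were lower. There 6 lower and 1 higher had an unadjusted p under 0.05, against 774 of all 18509 genes.

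Summed over the 23 genes, the level was 13.8, 15.2 and 17.0 FPKM in control and 30.5, 34.2 and 35.1 FPKM in IOP retinas of mice 3, 4 and 6. In the GCV-treated mice 1, 2 and 5 it was 14.0, 13.2 and 16.1 FPKM in control and 21.5, 25.4 and 27.1 FPKM in IOP eyes. The sum was higher in 6 of 6 IOP eyes (exact sign-flip test, two-sided, p = 0.03125, and 0.09375 after adjustment). In control retinas Spc25 alone thus exceeded the sum of all 23 dividing cell genes, and in the IOP retinas of 5 of 6 mice it lay below that sum. The exception was the IOP retina of mouse 1.

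**Figure D3:**
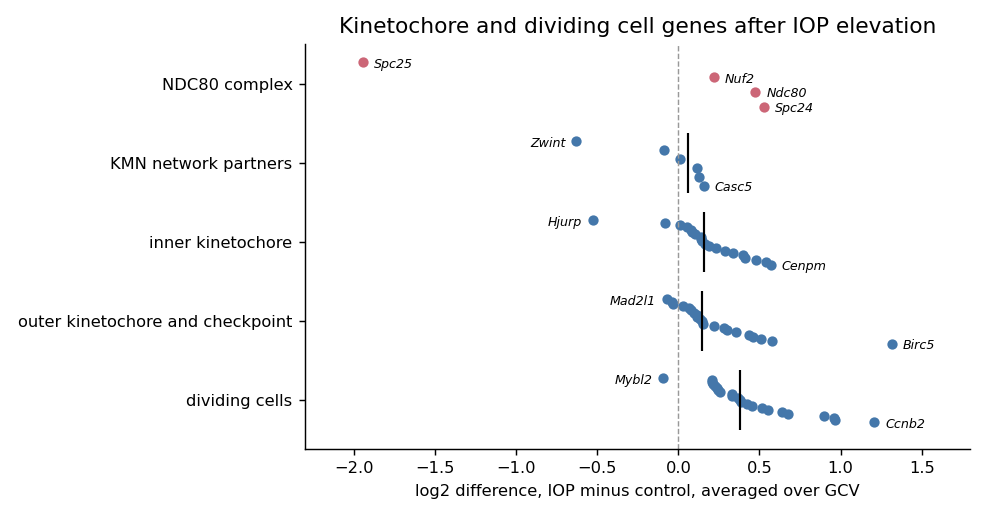
Averaged log2 difference between IOP and control retinas (x axis) for the NDC80 subunits and 4 lists of kinetochore and dividing cell genes (y axis). Points are genes, black lines are the medians of the lists and the dashed line is 0. Spc25 lies at -1.94, below every other gene drawn, while 22 of 23 dividing cell genes lie above 0.

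Markers of other cells moved in both directions after IOP elevation. The sum of 9 microglia and leukocyte genes was 32.4 to 84.1 FPKM in control and 239 to 2502 FPKM in IOP retinas, with 8 of 9 called higher in the averaged contrast, in which 12.2% of all genes were called. With the mouse as a block 7 were, where 7.3% of all genes were, and without single libraries 7 or 8, where 4.51% to 24.5% were. The highest sum was in the IOP retina of mouse 5, which had the lowest Spc25. The sum of 8 ganglion cell genes was 872 to 1777 FPKM in control and 207 to 965 FPKM in IOP retinas. Without GCV and with GCV alone 0 of the 8 were called, where 1.65% and 1.8% of all genes were. In the averaged contrast 7 of the 8 were called lower, where 12.2% of all genes were called, but with the mouse as a block 1 was (Thy1), a share near the 7.3% of all genes. Without single libraries 0 to 8 were, in fits that called 4.51% to 24.5% of all genes, with 0 when the control retina of any of mice 2 to 6 or the IOP retina of mouse 5 was left out and 8 without the IOP retina of mouse 4.

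The sum of 5 amacrine genes was 218 to 301 FPKM in control and 93.1 to 225 FPKM in IOP retinas. Of these 5, 0 were called without GCV or with GCV alone, where 1.65% and 1.8% of all genes were. In the averaged contrast 4 were called lower, where 12.2% of all genes were called, and 4 also with the block, where 7.3% were. Without single libraries 1 to 5 were, where 4.51% to 24.5% of all genes were, with 1 when any control retina or the IOP retina of mouse 5 was left out. Of 5 Mueller glia genes, 0 were likewise called without GCV or with GCV alone. In the averaged contrast Glul and Rlbp1 were called lower and Apoe higher, with 12.2% of all genes called. With the block Glul kept its call (adjusted p = 0.0393 by limma), and Rlbp1 (0.0547) and Apoe (0.058) did not. Without single libraries Glul was called in 12 of 12 fits, Rlbp1 in 5 and Apoe in 4. In the averaged contrast 0 of 13 rod and 0 of 6 bipolar genes were called, where 12.2% of all genes were, with 9 and 6 of them lower. Of 7 cone genes 5 were lower, and Arr3 was called lower (-1.28, adjusted p = 0.00911 by limma). Arr3 kept its call with the block (0.0387) and in 12 of 12 fits without single libraries. Of 6 lens genes 4 were called higher, each in 2 to 7 of 12 such fits. The part of these cells in the Spc25 difference was not tested.

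Genes whose profile was most like that of Spc25 were sought over the 12 libraries by Pearson's r on log2(FPKM + 1), among the 12909 genes whose mean reached 1 FPKM. These are descriptions, since the 12 points include both eyes of each mouse and the IOP difference on which Spc25 was selected. The 5 most alike were Glul (r = 0.973, Spearman's rho = 0.916), the glutamine synthetase of Mueller glia, Gjd2 (0.966, rho 0.937), a neuronal gap junction protein, Msmo1 (0.963, rho 0.909), an enzyme of sterol synthesis, Mtss1 (0.959, rho 0.916) and Krt222 (0.958, rho 0.986). Without the IOP retinas of mice 3 and 5, which lay farthest from the median of Spc25, r was 0.926 to 0.947 for these 5 genes.

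Glul stood at 815 to 902 FPKM in control and 307, 437 and 457 FPKM in IOP retinas of mice 3, 4 and 6. With GCV it was at 1018 to 1119 FPKM in control and 602, 515 and 184 FPKM in IOP retinas of mice 1, 2 and 5. Like Spc25, it had its lowest value in the IOP retina of mouse 5 and its higher control values in the GCV-treated mice. Within the 6 IOP retinas alone r was 0.939, and within the 6 control retinas 0.716. The other Mueller glia genes were less alike: r was 0.904 for Rlbp1, 0.661 for Aqp4, 0.167 for Slc1a3 and -0.857 for Apoe.

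The most opposite profiles were those of Tmsb4x (r = -0.989, rho -0.867), which encodes an actin monomer-binding peptide, Myo1g (-0.988, rho -0.944), a myosin of blood-derived cells, and Psme2b (-0.982, rho -0.874), a close copy of the proteasome activator gene Psme2 whose reads could be split between them. Within the 6 IOP retinas alone r was -0.987, -0.99 and -0.975 for these 3 genes, and within the 6 control retinas -0.146, -0.843 and -0.365. Myo1g was at 0.507 to 1.15 FPKM in control and 2.51 to 5.76 FPKM in IOP retinas, so that it reached the mean of 1 FPKM needed for ranking through the IOP retinas, and was again most extreme in the IOP retina of mouse 5. By list, the median r with Spc25 was 0.895 for 5 amacrine, 0.854 for 8 ganglion cell and 0.779 for 6 bipolar genes. It was 0.661 for 5 Mueller glia, 0.439 for 13 rod and 0.299 for 7 cone genes, of which Arr3 reached 0.919. For 6 lens genes it was -0.527 and for 9 microglia and leukocyte genes -0.904. The members of these lists were all ranked. Over all ranked genes the median was -0.0482.

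**Figure D4:**
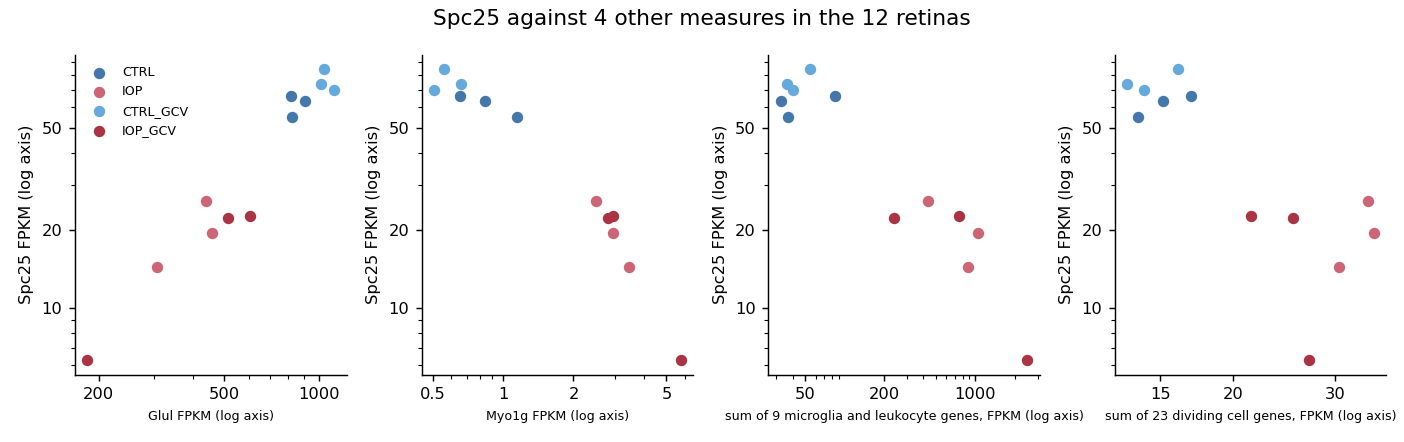
Spc25 FPKM (y axis, log) against Glul, Myo1g, the sum of 9 microglia and leukocyte genes and the sum of 23 dividing cell genes (x axes, FPKM, log). Each point is 1 of 12 retinas, coloured by group. Control and IOP retinas form separate clouds, and the IOP retina of mouse 5 with 6.28 FPKM of Spc25 lies at the end with least Glul and most Myo1g.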

How the data were processed

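The authors sequenced stranded, paired-end mRNA libraries. Per their methods, reads over RefSeq exons were counted with HOMER, and the submitters' processing notes also list TopHat2, Bowtie2, Cufflinks, Cuffdiff and mm10, with no versions. The deposited values were taken to be FPKM per gene, an inference from the table, with no counts; the strand setting of the counting is not given in the sources used here.

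The 4 members and all lists were chosen with earlier results of these data known. Named genes were the 4 subunits, all KMN genes, list members called in any comparison or among the 3 most abundant of their list, neighbours of Spc25, and the 5 most and 3 least alike profiles. Differences were fitted with limma 3.58.1 (R 4.3.3) on log2(FPKM + 1), with 4 group means over 12 libraries, a variance trend and Benjamini-Hochberg adjustment over 18509 genes (called: adjusted p under 0.05). Such differences understate changes of low genes. The fit was tested on simulated data. Eyes of a mouse share its number: correlations of their deviations from the group means were -0.117 to 0.388, and the pairing comes from the animal. Fragments were estimated from value steps of 1713 single-transcript genes (78.3% to 87.8% of low values within 0.15 of whole), a method chosen after seeing the values. Mice are the replicates.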

Additional observations from a re-analysis of the deposited data

Results flagged for a closer look

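Pmf1, a subunit of the Mis12 complex to which the NDC80 complex binds, moved in opposite directions with IOP in mice without and with GCV. It was at 15.9, 12.0 and 11.7 FPKM in control and 14.1, 9.55 and 9.85 FPKM in IOP retinas of mice 3, 4 and 6, lower in each IOP eye. In the GCV-treated mice 1, 2 and 5 it was at 11.0, 9.92 and 9.17 FPKM in control and 14.9, 15.3 and 12.2 FPKM in IOP eyes, higher in each. The mean log2 change without GCV minus that with GCV was -0.68. The interaction did not pass limma's test (adjusted p = 0.997, unadjusted p = 0.0181), so the difference is not established.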

How the results depend on the processing

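The Spc25 difference under IOP kept its sign in all alternatives run in the 3 IOP contrasts. Leaving out 1 library gave -1.81 to -1.41 without GCV, -2.56 to -1.71 with GCV and -2.09 to -1.66 averaged. Spc24 and Ndc80 gave no value under the filter of at least 1 FPKM in 3 libraries, because they did not pass it. Counts of genes called moved more. With a pseudocount of 0.1 FPKM they were 464 without GCV, 535 with GCV and 1 for GCV in control retinas. With only the groups compared they were 92 with GCV and 1 for GCV in control retinas. With the mouse as a replicate block they were 75 without GCV, 144 with GCV and 1351 averaged; the block changed no call of the 4 subunits. Without single libraries the counts were 23 to 2490 without GCV, 77 to 1046 with GCV and 830 to 4515 averaged, each highest without the IOP retina of mouse 4, and 0 to 3 and 0 to 4 for GCV in control and IOP retinas and 0 to 2 for the interaction. Signs changed in contrasts that had not passed. With a pseudocount of 0.1 FPKM the Nuf2 difference with GCV was -0.0767. Without single libraries the ranges were -0.27 to 0.32 for Nuf2 and -0.10 to 0.23 for Spc24 with GCV, -0.65 to 0.20 for Spc25, -0.0867 to 0.19 for Ndc80 and -0.51 to 0.0757 for Nuf2 for GCV in IOP retinas, and -0.00562 to 0.27 for the Ndc80 interaction. Ndc80 with GCV passed in 4 of 17 alternatives: with a pseudocount of 0.1 FPKM (2.39, adjusted p = 0.0137 by limma) and without the IOP retina of mouse 3 (0.53, 0.0495), mouse 4 (0.53, 0.0284) or mouse 2 (0.66, 0.0247). The cause of these changes was not tested. At 1 to 13 fragments per library for Spc24 and 0 to 13 for Ndc80, small differences were not detectable.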
